A study of Mus musculus with 81 samples.

Results

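The memory that remained in blood after a single EG7.OVA rechallenge was described from 14 of the 81 T-cell receptor β-chain (TCRβ) libraries of the series, which came from 7 mice previously cured of EG7.OVA tumors. The members were the blood libraries drawn on the pre-challenge days, day 65 (the day before EG7.OVA) and day 126 (the day before EL4), and they were paired by the animal code in their titles, which gave 7 pairs. All 7 were CD45.1 Pep Boy (B6) females whose established EG7.OVA tumors had been treated with a transfer of 1000000 naive OT-1 cells plus mRBC-OVA-4-1BBL-IL-12. These are mouse red blood cells with recombinant proteins attached chemically, namely an ovalbumin peptide on major histocompatibility complex I, 4-1BBL and IL-12. They were given in repeated doses of 250000000 cells. The mice received 2000000 EG7.OVA cells, a lymphoma line that makes ovalbumin, on day 66, and 100000 cells of EL4, the parental line without ovalbumin, on day 127. Every value on day 126 therefore followed the same treatment and 1 further exposure to EG7.OVA, 60 days earlier. No cured mouse was sampled on both days without that exposure, so that rechallenge and elapsed time cannot be told apart.

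Each T cell carries a TCRβ chain assembled from a V, a D and a J segment, with N nucleotides added at the joints, and the sequence across the joints is the complementarity-determining region 3 (CDR3). A rearrangement read at the DNA level is passed on to the descendants of a cell, so its count is used here to follow a clone over time. The same rearrangement can also arise in separate cells, so it does not always mark a single clone. OT-1 cells are transgenic CD8+ T cells that all carry the same receptor for the ovalbumin peptide SIINFEKL on H-2Kb, and CD8+ T cells that expand on meeting their antigen are known to contract afterwards to a smaller memory pool. Templates here are the authors' estimates of the number of input DNA molecules per rearrangement, and a library held 7702 to 12442 productive (in-frame) templates on day 65 and 6340 to 12836 on day 126. The OT-1 CDR3, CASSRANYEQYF (TCRBV12-01 with TCRBJ02-07), was taken as the most frequent CDR3 of blood drawn on the day of OT-1 transfer, where it ranked first in 14 of 14 libraries. The rearrangements below are those the results turn on, namely the most abundant OT-1 sequence and, in each mouse, the non-OT-1 (endogenous) clone with most templates on day 126 among those read on both days. Each is the 87-base read from 5′ to 3′, and capitals mark the CDR3 from the codon of its conserved cysteine to the end of the read. The read stops before the codon of the final phenylalanine (F) of the CDR3, so the capitals lack that codon.
OT-1 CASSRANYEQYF: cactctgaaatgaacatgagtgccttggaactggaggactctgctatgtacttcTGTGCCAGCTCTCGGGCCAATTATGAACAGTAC
mouse 1 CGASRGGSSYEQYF: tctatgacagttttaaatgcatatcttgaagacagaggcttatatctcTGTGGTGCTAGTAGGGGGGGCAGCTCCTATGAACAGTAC
mouse 2 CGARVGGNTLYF: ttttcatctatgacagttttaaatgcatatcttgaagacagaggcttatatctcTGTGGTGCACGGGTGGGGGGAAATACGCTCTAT
mouse 3 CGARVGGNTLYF: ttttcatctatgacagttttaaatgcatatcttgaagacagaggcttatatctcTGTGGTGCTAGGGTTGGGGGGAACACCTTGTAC
mouse 4 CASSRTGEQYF: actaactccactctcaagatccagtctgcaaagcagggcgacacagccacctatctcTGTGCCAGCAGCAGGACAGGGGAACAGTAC
mouse 5 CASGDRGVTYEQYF: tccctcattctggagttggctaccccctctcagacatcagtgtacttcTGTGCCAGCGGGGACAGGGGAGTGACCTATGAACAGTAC
mouse 6 TCRBV14-01 clone: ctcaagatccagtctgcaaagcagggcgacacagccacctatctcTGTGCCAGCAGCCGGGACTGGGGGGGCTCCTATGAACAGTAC
mouse 7 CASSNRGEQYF: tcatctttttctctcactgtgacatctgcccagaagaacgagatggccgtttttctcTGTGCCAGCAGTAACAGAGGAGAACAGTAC

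OT-1 cells took a larger share of the blood TCRβ templates on day 126 than on day 65 in each of the 6 mice in which their templates were read. Across the 7 mice, OT-1 frequency rose from 2.11% ± 1.86 (SD, n = 7) of productive templates on day 65 to 7.36% ± 6.04 by day 126. Mouse 4 gained most, from 3.27% to 15.6%. Mouse 1 went from 2.62% to 11.4%, mouse 7 from 3.62% to 12.3% and mouse 3 from 4.57% to 7.56%. In mouse 5 OT-1 frequency was 0.616% and then 3.66%, and in mouse 6, where 8 templates were read on day 65, it was 0.0698% and then 0.916%. Mouse 2 had no OT-1 template on either day, which allows a frequency of up to 0.0354% on day 65 and 0.0473% on day 126 (3 templates). It also had none on day 73 and 3 (0.0242%) on day 136. The ranges of the days overlapped, and mice 5, 6 and 2 were, in that order, the lowest on both.

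The mean change was 5.25 percentage points (SD 4.69, n = 7), and it was positive in 6 of 7 mice and 0 in the seventh (2-sided exact sign-flip test, p = 0.03125, the smallest value that 6 changing pairs allow). After Benjamini-Hochberg adjustment over the 7 measures compared between the days, the exact sign-flip p became 0.109, and none of the 7 measures passed the threshold. Without mouse 2 the mean change was 6.12 percentage points (SD 4.47). As a ratio, day 126 over day 65, the rise was 4.57-fold (geometric mean of 6 mice). It was smallest in mouse 3, at 1.65-fold (95% interval 1.46 to 1.88), and largest in mouse 6, at 13.1-fold (95% interval 6.39 to 26.9). These intervals cover counting error only. The interval of mouse 3 lay below those of the 5 other mice, while those of mice 1, 4 and 5 overlapped, as did those of mice 5 and 6. In blood, a larger share of OT-1 templates cannot be told apart from a smaller number of other T cells.

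In these 6 mice the day 126 frequency lay between those of day 65 and day 73. On day 73, 7 days after EG7.OVA, OT-1 cells had taken 8.38% of templates in mouse 6 and 24.0% to 45.0% in the 5 other mice with OT-1 templates. The day 126 frequency was 10.9% of the day 73 frequency in mouse 6, 15.3% in mouse 5 and 27.4% to 46.2% in mice 1, 3, 4 and 7. OT-1 was the most frequent CDR3 in 4 libraries on day 65 and in 5 libraries on day 126. It moved from second to first rank in mouse 5, and from rank 12 to rank 2 in mouse 6. A single nucleotide rearrangement made up at least 96.2% of the OT-1 templates in each of the 12 libraries that held any, so other rearrangements that encode this CDR3 added little.

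Mice with more OT-1 cells on day 65 tended to have more on day 126. On the scale of frequencies the relation kept its sign when any 1 mouse was left out, but mostly did not pass the threshold. Pearson's r was 0.80 over 7 mice (exact permutation p = 0.0480, and the same after adjustment over 2 relations) and Spearman's rho was 0.75 (exact permutation p = 0.0663). Leaving out mice 2 and 6, the farthest from the median of day 65, gave r = 0.50 (exact permutation p = 0.392). Leaving out 1 mouse gave r = 0.73 to 0.97, and the relation passed the threshold only without mouse 3 (r = 0.97, exact permutation p = 0.0167). On the log2 scale (pseudocount 0.01) r was 0.95 over the 7 mice (exact permutation p = 0.00417). For day 73 against day 126, r was 0.89 (exact permutation p = 0.00516, adjusted 0.0103) and rho was 0.96 (exact permutation p = 0.00278, adjusted 0.00556). Without mice 2 and 7 that r was 0.90 (exact permutation p = 0.0417). The 2 relations were not tested against each other, and the day 73 relation was not computed on the log2 scale.

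**Figure D1:**
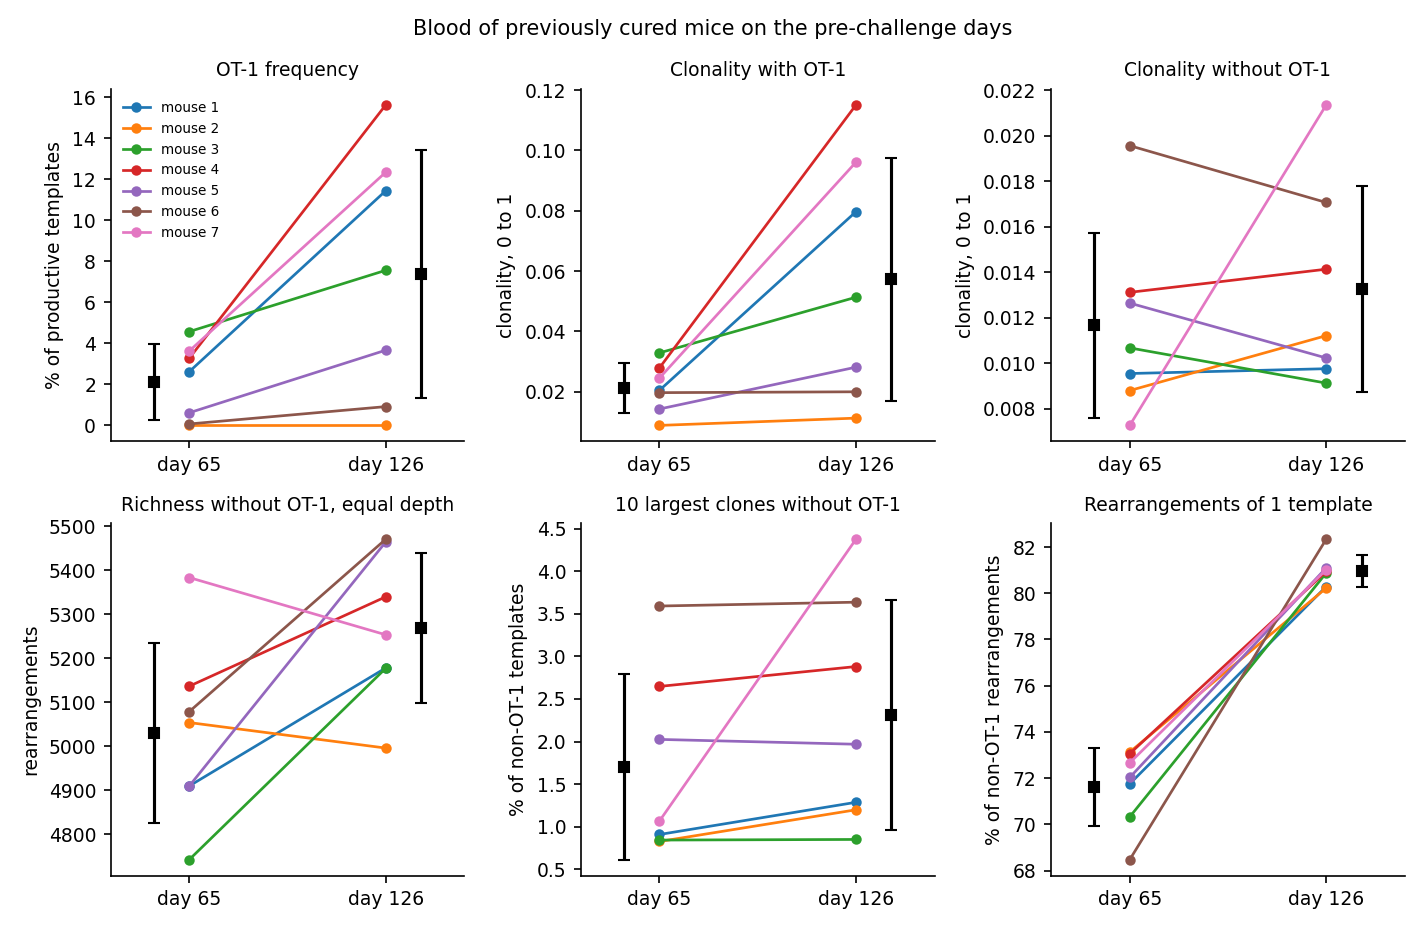
Values of the 7 previously cured mice on days 65 and 126 (colored lines, 1 per mouse), with the mean and SD beside them (black squares and bars). The panels show OT-1 frequency, clonality with and without OT-1, richness at 6340 templates, the share of the 10 largest endogenous clones, and the share of rearrangements with 1 template. OT-1 frequency rose in 6 mice, clonality without OT-1 had no common direction, and the share of rearrangements with 1 template was higher on day 126 in 7 of 7 mice without overlap. The vertical axes do not all start at 0.

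Clonality of the endogenous T cells was close to 0 on both days at the depth read. Clonality, which is 0 when all clones are equal in size and 1 when a single clone is present, was computed on 6340 templates per library. Rearrangements of 1 template were 68.5% to 73.1% of the endogenous rearrangements on day 65 and 80.2% to 82.3% on day 126. At such a depth a clonality near 0 does not show that clones were equal in size. Without OT-1 clonality was 0.0117 ± 0.0041 on day 65 and 0.0133 ± 0.0045 on day 126 (SDs of 7 mice). It was higher in 4 mice and lower in 3, and the mean change of 0.0016 (SD 0.0058) was smaller than its spread (exact sign-flip test, p = 0.719). Mouse 7 alone moved by 0.0141, and the 6 other mice moved by -0.0025 to 0.0024. With OT-1 included, clonality rose in 7 of 7 mice, from 0.0212 ± 0.0081 to 0.0573 ± 0.0403 (SD, n = 7, exact sign-flip test, p = 0.0156, the smallest that 7 pairs allow, adjusted p = 0.109). The rise was 0.0872 in mouse 4 and 0.000284 in mouse 6. Mouse 2 had no OT-1 template on either day, so its rise of 0.00241 was that of its endogenous clones.

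The 10 largest endogenous clones held 0.827% to 3.59% (median 1.07%) of the non-OT-1 templates on day 65 and 0.851% to 4.37% (median 1.97%) on day 126. Their share was higher in 6 of 7 mice, by a mean of 0.612 percentage points (SD 1.20, exact sign-flip test, p = 0.0781). Most of that mean came from mouse 7, which rose by 3.31 percentage points, and without mouse 7 the mean change was 0.163. The other mice changed by -0.0567 to 0.378 percentage points.

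Richness, the number of different endogenous rearrangements expected in 6340 templates, was 4742 to 5384 (median 5054) on day 65 and 4996 to 5471 (median 5254) on day 126. It was higher in 5 of 7 mice, by a mean of 238 rearrangements (SD 254), and the difference did not pass the threshold (exact sign-flip test, p = 0.0625). In 1000 templates the mean difference was 0.986 rearrangements (exact sign-flip test, p = 0.906), and at unequal depth it was 719 (exact sign-flip test, p = 0.281). The libraries of the later day also held more rearrangements of a single template, 80.2% to 82.3% of all against 68.5% to 73.1% on day 65, and fewer templates per rearrangement, 1.26 to 1.32 against 1.34 to 1.44. Day 73 was like day 65 in this respect, with 71.5% to 76.7% of rearrangements at 1 template, and day 136 was like day 126, with 81.1% to 82.3%. The day of sampling and these properties of the libraries cannot be told apart, and this holds for the clone calls and V segment use below as well. Their part in the richness difference, in those calls and in V segment use was not tested.

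CDR3 length and the number of N nucleotides differed between the days by less than the spread of the changes. The mean CDR3 length was 41.4 bases on both days and changed by 0.0144 bases (SD 0.160, exact sign-flip test, p = 0.813). N insertions went from 3.40 to 3.43 bases per template (change 0.0221, SD 0.0618, exact sign-flip test, p = 0.438).

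A small set of endogenous clones was read on both days, and libraries of the same mouse shared more of them than libraries of different mice. Between 33 (mouse 2) and 93 (mice 4 and 7) rearrangements other than OT-1 were found in both libraries of the same mouse, 437 over the 7 mice. These were 0.524% to 1.29% of the rearrangements of day 65, and they held 1.05% to 4.18% of its non-OT-1 templates and 1.02% to 5.37% of those on day 126. At equal depth, the libraries of 1 mouse shared 38.9 ± 9.22 (SD, n = 7) rearrangements, against 13.97 ± 1.55 (SD, n = 7) with the day 126 libraries of the 6 other mice. The own-mouse value was higher in 7 of 7 mice, by 24.9 (SD 8.86, exact sign-flip test, p = 0.0156, adjusted over 4 tests 0.0208), and in each mouse it was the highest of the 7 values. The highest value for a pair of different mice, 22.7, lay below the lowest own-mouse value, 29.0.

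**Figure D2:**
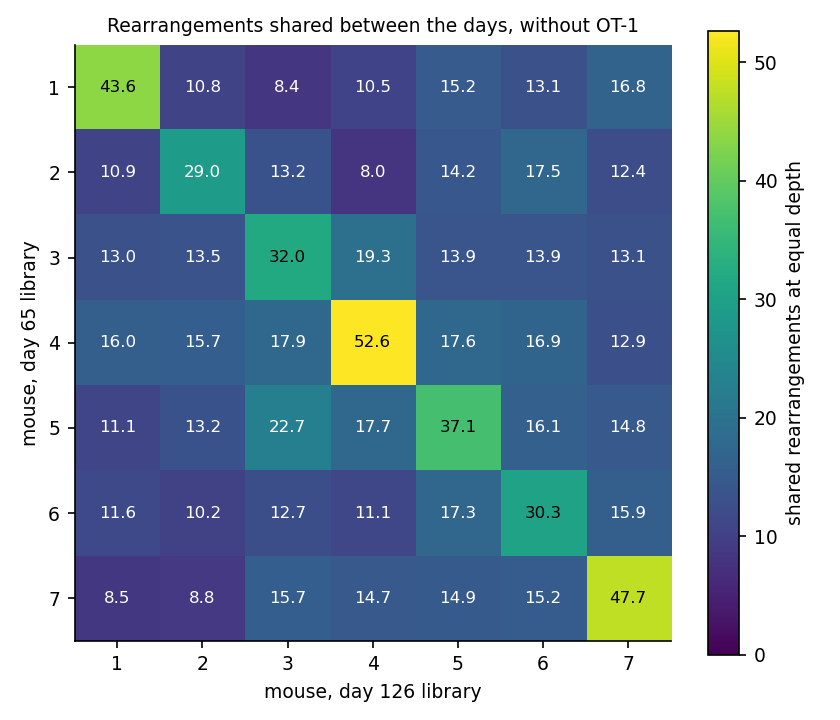
Rearrangements other than OT-1 shared between each day 65 library (rows) and each day 126 library (columns), computed for 6340 templates per library. The diagonal holds libraries of the same mouse, 29.0 to 52.6, and the other cells hold 8.0 to 22.7.

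Clones of day 65 were looked for on day 73 as well as on day 126. At 4281 templates per library, 26.3 ± 6.19 (SD, n = 7) rearrangements of day 65 were read again on day 73, and 24.6 ± 6.13 (SD, n = 7) on day 126, 61 days after day 65. The difference of -1.67 (SD 5.10) was within the spread between mice (exact sign-flip test, p = 0.406), with 5 mice lower and 2 higher. Its sign was not stable, since the Morisita-Horn index, which weights clones by size, was higher by 0.042 for the longer interval (exact sign-flip p = 0.25), and shared CDR3 amino acid sequences were higher by 11.0 (exact sign-flip p = 0.0625).

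The share of clones read again was higher for larger clones. Of 33889 clones with 1 template on day 65, 239 (0.705%) were read on day 126, and of 10273 with 2 templates, 97 (0.944%) were. The share was 1.71% for 3 to 4 templates and 29.2% (21 of 72) for 5 to 9. Of the 29 clones with 10 or more templates, 28 (96.6%) were still present, and the exception was in mouse 5. Since a larger clone is also more likely to be sampled, these shares describe detection and not survival. Kept clones also recurred on the other days: 134 of the 437 were read on day 73 and 164 on day 136, and 104 were read on all 4 days. In single mice, 23.8% to 37.1% of kept clones were read on day 73, against 0.229% to 0.559% of the other clones of day 65. Larger clones were kept more often, and this contrast was not matched for clone size, so it also describes detection.

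Kept clones more often lacked N nucleotides than the rest. Rearrangements without N nucleotides can arise again and again by recombination, in a mouse and between mice. They made up 25.9% ± 8.34 (SD, n = 7) of kept clones and 8.74% ± 0.416 of the clones of day 65 that were not kept, with the kept share higher in 7 of 7 mice (difference 17.2 percentage points, SD 8.20, exact sign-flip test, p = 0.0156, adjusted 0.0208). Kept clones were also more often found as the same rearrangement in another cured mouse, 29.9% ± 10.3 against 5.47% ± 0.230 (SD, n = 7, exact sign-flip test, p = 0.0156, adjusted 0.0208). Among clones private to 1 mouse the difference was smaller, at 15.3% of kept and 7.07% of other clones without N nucleotides. A rearrangement made independently on each day and a clone that persisted have the same sequence here, and their parts were not separated.

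**Figure D3:**
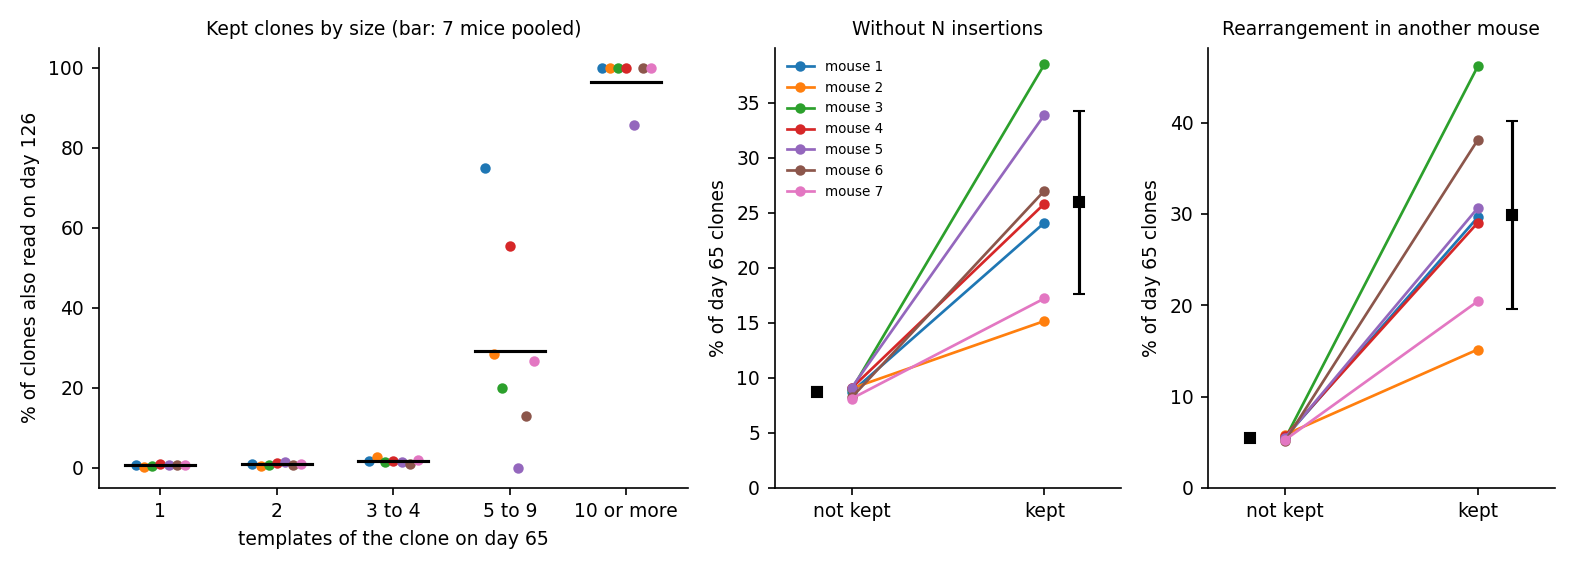
Endogenous clones of day 65 that were read again on day 126. Left, the share kept by the clone's templates on day 65 (dots, mice in the colors of the legend; bars, all mice pooled), 0.705% at 1 template and 96.6% at 10 or more. Middle and right, the share of clones without N nucleotides and with the same rearrangement in another cured mouse, for clones not kept and kept, with mean and SD.

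At the level of the CDR3 amino acid sequence, 2048 endogenous sequences were kept in at least 1 mouse, 1767 of them in a single mouse. Different mice shared nearly as many, since at equal depth the 2 days had 209 such sequences in common within a mouse and 185 between different mice (means of 7 mice, difference 23.9, exact sign-flip test, p = 0.0156). Only 3 were kept in 6 or more mice. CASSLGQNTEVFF was kept in 7 of 7 mice at 13 templates in all on each day, from 22 rearrangements of 9 V segments joined to TCRBJ01-01. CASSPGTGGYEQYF was kept in 6 mice, with 31 templates on day 65 and 52 on day 126, from 37 rearrangements of 13 V segments joined to TCRBJ02-07. The third was a CDR3 of 15 residues from TCRBV13-02 and TCRBJ02-03, with 11 templates on each day. All 3 stayed rare, at no more than 14 templates in any library.

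Single endogenous clones were called higher or lower in most mice, and most called clones were read on 1 of the days only. Of 275 clones with 5 or more templates over both days of a mouse, 55 (20%) had a higher share of non-OT-1 templates on day 126 and 46 (16.7%) a lower share, at an adjusted p under 0.05 from Fisher's exact test within each mouse. This test compares 2 libraries of 1 mouse and takes templates as independent molecules, so it does not compare the days across mice. The minimum counts both days together, so a clone absent on 1 day entered only through the day on which it was high. That was so for 45 of the 55 higher clones, absent on day 65, and for 36 of the 46 lower clones, absent on day 126. The calls among these clones are therefore largely set by the choice of clones. Mouse 7, with 64 clones tested, supplied 32 of the 55 higher clones, and mouse 6, with 43 tested, supplied 21 of the 46 lower clones. Mouse 3, with 24 tested, had none in either direction. The fewest clones tested were the 18 of mouse 2. Without mouse 7, 23 higher clones remained, and without mouse 6, 25 lower clones. In mouse 6, 13 of the 21 lower clones used TCRBV02-01, had 5 or 6 templates on day 65 and were absent on the 3 other days. TCRBV02-01 had 1.74 templates per rearrangement in that library and 1.24 to 1.48 in the 13 others, and its part in those calls was not tested.

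Among the 61 clones with 10 or more templates over both days, where the same limit holds, 20 (32.8%) were higher and 11 (18%) lower on day 126. Mouse 7 supplied 9 of the higher and mouse 5 supplied 5 of the lower clones, so 11 higher remained without mouse 7 and 6 lower without mouse 5. Of the 20 higher clones, 17 were also read on day 136 and 7 on all 4 days. Of the 11 lower clones, 9 were read on all 4 days.

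The largest clones followed several courses. In mouse 5, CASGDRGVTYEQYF (TCRBV13-02) had 27, 283, 105 and 174 templates on days 65, 73, 126 and 136. Its share of non-OT-1 templates went from 0.322% through 5.65% to 0.879% at rest (Fisher's exact test, adjusted p = 1.85e-05). On day 136 its share was 0.787%. In mouse 4, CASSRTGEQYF (TCRBV14-01) went from 0.784% through 3.37% to 1.23% (77, 215 and 133 templates, Fisher's exact test, adjusted p = 0.0332). In mouse 2, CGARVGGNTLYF (TCRBV20-01) went from 0.0472% through 1.31% to 0.457% (4, 56 and 29 templates, Fisher's exact test, adjusted p = 1.93e-06). These 3 clones were highest on day 73 and remained above their day 65 share on day 126. The same held for 2 clones of mouse 7, named after their values were seen, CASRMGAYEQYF (0.150%, 1.04% and 0.456%) and a TCRBV29-01 clone with a CDR3 of 15 residues (0.10%, 0.938% and 0.328%). The first 3 clones, and the largest clone of mouse 7 below, were chosen by their day 126 templates. That choice favors a higher share on day 126, so their p-values from Fisher's exact test are not separate support for a rise.

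The largest clone of mouse 7 on day 126 took another course. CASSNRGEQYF (TCRBV19-01) had 11, 23, 274 and 160 templates on the same days, or 0.0917%, 0.490%, 2.50% and 1.75% of non-OT-1 templates, so that it was highest on the second resting day (Fisher's exact test between the resting days, adjusted p = 3.69e-71). The largest endogenous clone of mouse 6, a TCRBV14-01 rearrangement with a CDR3 of 15 residues, was large on every day, with 287, 158, 264 and 383 templates, and its share was 2.51% on day 65 and 2.28% on day 126 (adjusted p = 0.305, Fisher's exact test). In mouse 1, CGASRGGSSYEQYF had 18 and 15 templates on the resting days (adjusted p = 0.760, Fisher's exact test) and 130 on day 136, after EL4.

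Mouse 2 and mouse 3 shared the amino acid sequence of their largest kept clone, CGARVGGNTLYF, but not its rearrangement. The clone of mouse 2 joined TCRBV20-01 to TCRBJ01-03 with 5 N nucleotides, and that of mouse 3 joined TCRBV20-01 to TCRBJ02-04 with 1. In mouse 3 it had 8, 12, 9 and 15 templates on the 4 days. No template of this CDR3 was read in the 5 other mice on any of the 4 days.

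Further clones were named as the largest higher or lower clone of their mouse. The higher clone with most templates was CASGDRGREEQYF in mouse 1 (2 and 13 templates) and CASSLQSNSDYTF in mouse 6 (0 and 19 templates, and 16 on day 136). The lower clones with most templates were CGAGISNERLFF in mouse 1 (8 and 0), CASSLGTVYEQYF in mouse 2 (15 and 2), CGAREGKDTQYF in mouse 6 (28 and 11) and a TCRBV05-01 clone in mouse 7 (22 and 6). In mouse 4, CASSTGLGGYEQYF had 37 and 15 templates on the resting days and 50 on day 136. Its share of non-OT-1 templates was 0.377%, 0.138% and 0.309% on those days, so it stayed below its day 65 share. In mouse 5, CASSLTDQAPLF, a TCRBV15-01 clone without N nucleotides, had 56, 54, 48 and 43 templates on days 65, 73, 126 and 136. Its share was 0.667%, 1.08%, 0.402% and 0.194%, since the libraries differed in size.

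**Figure D4:**
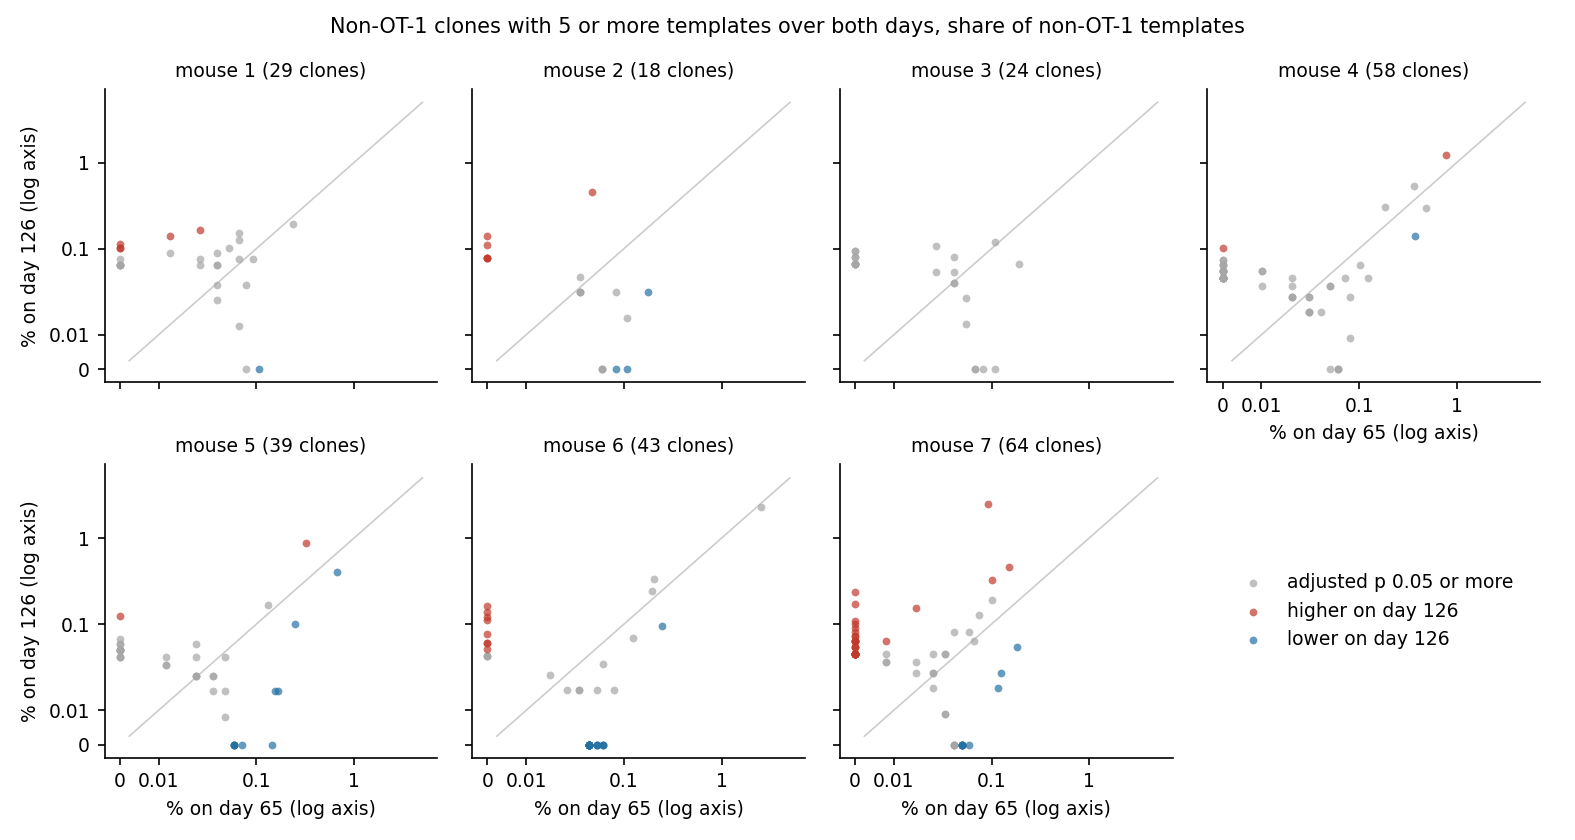
Share of non-OT-1 templates on day 65 (horizontal) and day 126 (vertical) for the endogenous clones with 5 or more templates over both days, 1 panel per mouse, on log axes with clones not read placed at 0. Red clones were higher and blue clones lower on day 126 by Fisher's exact test. Most called clones lie at 0 on 1 of the days (45 of 55 higher and 36 of 46 lower), and the red clone at 2.50% in mouse 7 is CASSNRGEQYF.

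Of the V segments of the endogenous T cells, TCRBV15-01 alone passed the test. Of 23 V segments with a mean of 10 or more templates per library, 1 (4.35%) changed (edgeR quasi-likelihood test with mouse as a block, adjusted p under 0.05), and 5 had an unadjusted p under 0.05. TCRBV15-01 was 2.91% to 4.00% (median 3.20%) of non-OT-1 templates on day 65 and 2.15% to 3.41% (median 2.68%) on day 126. It was lower in 7 of 7 mice, by a mean of 0.56 percentage points (log2 fold change -0.28, SE of the log2 ratios over mice 0.064, edgeR adjusted p = 0.0086), although the ranges of the days overlapped. DESeq2 gave an adjusted p of 0.0286, and the call was lost in the edgeR fit without the mouse block (adjusted p = 0.134) and in the exact sign-flip test of shares (adjusted p = 0.120, where 8 segments at the smallest p would be needed for a call). The lymphoma cells also use a TCRBV15 rearrangement, and its CDR3, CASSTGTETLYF, had 0 templates in the 28 libraries of cured mice. TCRBV15-01 was 3.28% ± 0.452 on day 73 and 2.97% ± 0.218 after EL4 (day 136, SDs of 7 mice). Days 65 and 73 were also the days with the smaller share of rearrangements of 1 template. The part of that property in the TCRBV15-01 call was not tested.

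The 5 most used segments did not pass the test. TCRBV13-02 was 10.6% ± 0.314 on day 65 and 11.1% ± 0.628 on day 126 (SD, n = 7, edgeR adjusted p = 0.432), and the next 4, TCRBV19-01, TCRBV03-01, TCRBV02-01 and TCRBV13-03, changed by -0.057 to 0.32 percentage points. TCRBV12-01, the segment of the OT-1 receptor, was named after its values were seen. Without OT-1 it was 4.70% ± 0.373 on day 65 and 4.20% ± 0.270 on day 126, lower in 7 of 7 mice, but its edgeR adjusted p was 0.0527. When each rearrangement was counted once, 4 segments passed the threshold: TCRBV13-02 was higher, and TCRBV15-01, TCRBV12-01 and TCRBV12-02 were lower.

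**Figure D5:**
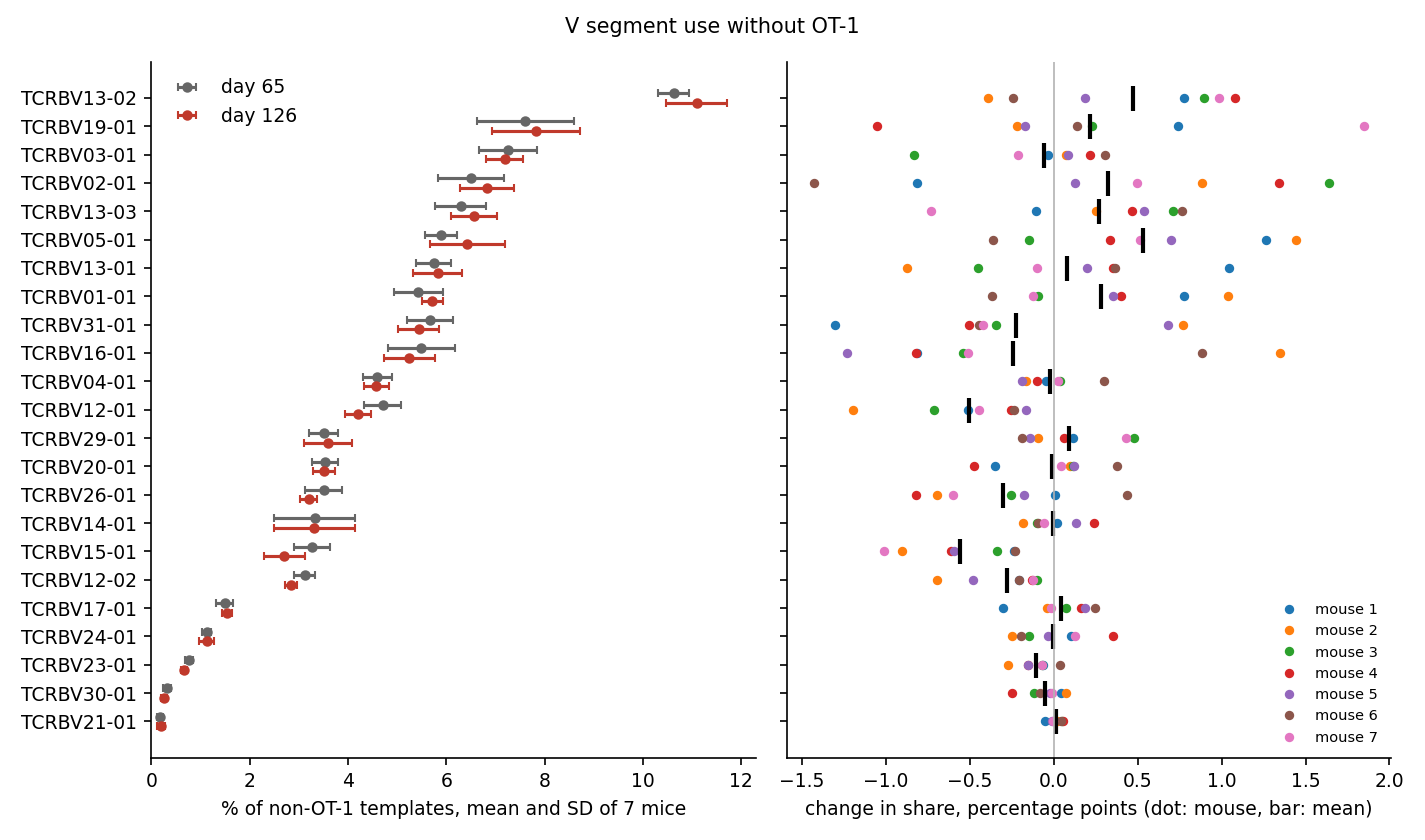
V segment use without OT-1 in the 7 previously cured mice. Left, the share of non-OT-1 templates on days 65 and 126 (mean and SD). Right, the change from day 65 to day 126 in percentage points for each mouse (dots) and the mean (bars). TCRBV15-01, TCRBV12-01 and TCRBV12-02 lie below 0 in 7 of 7 mice.

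None of 12 J segments passed the threshold in the edgeR quasi-likelihood test (0%), where 3 had an unadjusted p under 0.05, and none did with DESeq2, where no unadjusted p was under 0.05. TCRBJ02-07, which is also the J segment of OT-1, was 29.8% ± 0.974 of non-OT-1 templates on day 65 and 29.0% ± 1.35 (SD, n = 7) on day 126 (edgeR adjusted p = 0.30). TCRBJ02-05 went from 9.21% to 9.75% (edgeR adjusted p = 0.186), and TCRBJ02-01 went from 8.9% to 8.67% (edgeR adjusted p = 0.482). Leaving out mouse 6 gave 1 call and leaving out mouse 7 gave 2, and no other omission gave any.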

How the data were processed

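According to the methods, the authors extracted genomic DNA from blood of previously cured mice, amplified TCRβ CDR3 regions in the immunoSEQ multiplex assay, sequenced them and filtered and collapsed the reads with its analysis software. For each nucleotide rearrangement they deposited a template count, with V, D and J calls, CDR3 length and insertions. The aligner and genome build are not given in the sources used here. Replicates are separate mice, paired by animal code. For mouse 2 on day 73 the label text says mouse 1, and the animal code was followed.

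Rows with an in-frame status were kept. OT-1 frequency is OT-1 templates over productive templates. Clonality is 1 minus Shannon entropy over the log of the number of rearrangements, averaged over 100 draws of 6340 templates, and richness and sharing at equal depth were computed exactly by rarefaction. The 2-sided exact sign-flip test over 7 mice served for changes, Fisher's exact test for clones, and for segments edgeR 4.0.16 (no TMM factors, mouse block, mean of at least 10 templates), DESeq2 1.42.0 being an alternative. Calls used Benjamini-Hochberg adjusted p under 0.05. Python 3.11.15, scipy 1.17.1 and R 4.3.3 were used. The tests were tried on simulated data with known changes. Named clones were, by rule, the largest kept, higher and lower clone of each mouse and CDR3s kept in at least 6 mice, with the called V and J segments and the 5 V and 3 J most used. Members, lists and rules were chosen with earlier results of these data known. A frequency is detectable from 3 templates upward, 0.0234% to 0.0473% per library, and intervals (95%) cover counting error only.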

Additional observations from a re-analysis of the deposited data

Results flagged for a closer look

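In 27 sets of 7 values, 3 had a mouse that stood apart from the others by Dixon's criterion, where about 1.35 would be flagged by chance. All 3 were mouse 7. Its clonality without OT-1 rose by 0.0141 between the resting days, against 0.0024 in the next mouse. The share of its 10 largest endogenous clones rose by 3.31 percentage points, against 0.378 in the next mouse. It had 32 endogenous clones higher on day 126, against 8 in the next mouse. The clone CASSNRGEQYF, at 2.50% of its non-OT-1 templates on day 126, entered all 3 values, though in the last as only 1 of the 32 clones. All 3 values come from the same libraries, so they are not independent of each other. Mouse 7 also had the most clones tested, 64.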

How the results depend on the processing

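Of 172 alternative values, 137 kept the direction and side of the threshold, or stayed within 1.5 times the count. Of the 172, 112 left out 1 mouse, and 45 of the 60 others were kept in this sense. A change that did not pass the threshold counted as kept at any size with the same sign, such as the richness change of 0.986 in 1000 templates. The OT-1 change was positive under all 13 alternatives, and was 12.3 percentage points without rearrangements of 1 template and 3.63 with all templates as denominator (exact sign-flip p = 0.03125 for each). Leaving out 1 mouse moved it between 4.07 and 6.12 percentage points with an exact sign-flip p of 0.03125 to 0.0625, where 0.0625 is the smallest p that 5 changing mice allow, so that the test cannot pass without any of the 6 mice with OT-1 templates. Leave-one-out values ran from -0.000469 to 0.0023 for clonality without OT-1 (negative without mouse 7), from 0.163 to 0.724 percentage points for the 10 largest clones (exact sign-flip p = 0.03125 without mouse 5), from -0.0191 to 0.0627 bases for CDR3 length (negative without mouse 1), and from 0.725 to 0.972 for the correlation of OT-1 frequencies between the days (exact permutation p up to 0.117). Without the replicate block, the richness change of 238 passed the threshold (exact permutation p = 0.0408), no V segment was called and no other call changed. Clones kept to day 126 against day 73 turned positive with the Morisita-Horn index (0.042) and with amino acid sequences (11.0). The cause of these shifts was not tested.

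Clone counts depended on the minimum and the threshold. The 55 higher clones became 20 with at least 10 templates, 5 with no minimum, 18 at an adjusted p under 0.01, 34 at the same depth and 23 to 55 on leaving out 1 mouse. The 46 lower clones became 11, 0, 3, 11 and 25 to 46, and 30 without clones of TCRBV02-01, an alternative chosen after seeing the data, as was the restriction to private rearrangements. A stricter threshold or fewer mice can only lower the counts, and fewer clones or templates leave less to call. With no minimum, the adjustment covered more tests. V segments changed were 4 with each rearrangement counted once, 0 with the sign-flip test and 1 to 3 on leaving out 1 mouse (3 without mouse 6). J segments changed were 0 to 2 on leaving out 1 mouse (1 without mouse 6, 2 without mouse 7).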
